A study of Homo sapiens with 108 samples.

Results

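Knockdown of ZMAT3 was read against a non-targeting hairpin (NT) in 24 of the 108 libraries of a SLAM-seq series, 12 of each arm, chosen by their titles and matched by hours of chase. All were HEK293T cells, a human embryonic kidney line, that carried a single lentiviral hairpin and were selected with puromycin. Cells took up 4-thiouridine (4SU) for 24 h and were chased with an excess of unlabelled uridine for 0, 2, 4 or 8 h, with 3 biological replicates at each of the 4 times in each arm, and both arms received the same label and chase. In SLAM-seq, 4SU built into RNA is alkylated and read as cytosine, so the share of covered T positions read as C (the T>C rate) tracks labelled RNA and its fall during the chase tracks decay. Each arm rests on 1 hairpin, the reads are 3′ tags of mRNA counted in 3′ UTR intervals, and protein was not measured. In bulk RNA of this kind, fewer cells of a type and less RNA per cell cannot be told apart. Of the other 7 knockdowns in the series, BRCA1 was used on its own as a second control, and all 7 together as a further one. The libraries of the 7 were not alike. PHF7 replicate 3 at 8 h held 63659 reads in these intervals and 3279 genes. CNOT4 replicate 3 at 2 h held 6495 genes. Mean covered T positions per read were 27.66 to 34.01 in CNOT4 libraries, 25.94 to 33.04 in ZFP36L1 and 36.62 to 37.96 in ZMAT3. What part these differences have in the calls against the 7 was not tested.

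ZMAT3, also called Wig-1, is a zinc finger protein that binds double-stranded RNA and AU-rich stretches of 3′ UTRs. The protein is known both as a stabiliser of some mRNAs, MYCN among them, and as a regulator of splicing and of FAS decay. Antizyme 1, the product of OAZ1, which carries much of what follows, binds ornithine decarboxylase, the entry enzyme of polyamine synthesis, and delivers it to the proteasome, and its own translation needs a ribosomal frameshift that polyamines stimulate.

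The hairpin is shown because it defines the arm. Its sense stem lies in the coding part of exon 3 of the 6 exons of ZMAT3, at chr3:179030970-179030990 (hg38, minus strand), and matched 4 ZMAT3 transcripts and no other gene. In the antisense stem the capitals mark the seed, bases 2 to 8 from the 5′ end.
ZMAT3 hairpin, sense stem: catggtaagaaactccgaaat
ZMAT3 hairpin, antisense stem: aTTTCGGAgtttcttaccatg

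The arms differed in depth and in how many genes a library held. ZMAT3 libraries held 13337328 to 25669852 reads in 3′ UTR intervals and NT libraries 8206060 to 13359455. The ZMAT3 libraries detected 13185 to 13828 genes and the NT libraries 11137 to 11825. After every library was thinned to 8206060 reads, the ranges were still apart, at 13023 to 13418 and 11137 to 11736. The common biological coefficient of variation between libraries of an arm was 0.363 in ZMAT3, 0.882 in NT and 0.946 in BRCA1. BRCA1 libraries were like those of NT in gene detection too, at 10102 to 11710 genes before thinning. A high detection was not particular to ZMAT3. Before thinning it was 12777 to 13627 genes in MAZ, 12982 to 14490 in ZFP36L1 and, without 8 h replicate 3, 13240 to 13975 in PHF7. ZMAT5 libraries held 12249 to 12624, ZNF706 11609 to 12733 and CNOT4 6495 to 13333. Of the HEK293 genes checked, 7 of 7 were detected in both arms, with summed levels of 425 to 524 CPM (reads scaled by TMM library size to a common total) in ZMAT3 and 404 to 597 in NT. Summed markers of other cell types were at most 8.09 CPM for blood, 36.8 for fibroblasts, 7.36 for endothelium, 1.204 for hepatocytes and 0.437 for keratinocyte and lung epithelium, with HBB, COL1A2, KRT14, SFTPC and SCGB1A1 at 0 throughout. Only 6 HEK293, 1 blood and 2 fibroblast markers had reads enough to be tested for level, and none was called. For endothelium, hepatocytes and keratinocyte and lung epithelium no marker was tested.

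ZMAT3 mRNA (ENSG00000172667, chromosome 3, 178960121 to 179072215, minus strand) was lower in the knockdown. Its normalised level was 2.07, 6.34 and 16.04 CPM (lowest, median and highest of 12) in ZMAT3 libraries and 15.4, 25.1 and 45.3 CPM in NT libraries. Only the highest ZMAT3 library reached the range of the controls. The log2 difference was -2.01 (SE 0.311, adjusted p = 2.6e-05), and by chase time it was -2.57, -1.65, -1.44 and -2.35 at 0, 2, 4 and 8 h. Against BRCA1 it was -1.40 (adjusted p = 0.0175) and against the other 7 knockdowns -1.91 (adjusted p = 3.42e-05), where the arm medians ran from 14.7 CPM (ZNF706) to 44.2 CPM (ZFP36L1). ZMAT3 carried 1522 reads in its knockdown and 3705 in NT, too few for its own decay to be tested.

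Levels were called in like numbers both ways. A gene was called at an adjusted p under 0.05 and a change over 1.2-fold, which 615 of 12776 tested genes (4.81%) did upward and 633 (4.95%) downward, 9.77% in all. The median log2 difference over all tested genes was 0.08, over the called rises 0.54 and over the called falls -0.57, and 159 rises and 95 falls passed 2-fold. The 12 libraries of one arm lay wholly apart from the 12 of the other for 84 genes (0.657%), of which 75 were lower in ZMAT3 and 9 higher, all of them called. Of the 75 lower genes, 72 were also called lower against BRCA1 and 34 against the other 7 knockdowns. In either direction 9.81% of 12717 tested genes were called against BRCA1 and 3.69% of 13882 against the 7. BRCA1 libraries had a gene detection like that of NT, and what part this has in the 72 was not tested. A dependence of the difference on hours of chase was called for 0 of 13307 genes (0%) by edgeR, with 928 at an unadjusted p under 0.05, and for 99 by DESeq2.

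Calls depended on level. Among 2442 genes under 5 CPM, 146 were higher and 0 lower, with a median log2 of 0.80. At 5 to 20 CPM 7 of 2934 were higher and 59 lower, and at 20 to 100 CPM 194 and 259 of 5121. Among 2279 genes over 100 CPM, 268 were higher and 315 lower, with a median of 0.03. Of the 615 called rises, 148 were absent from at least 1 NT library, as were 3773 of all 12776 tested genes, and 31 from all 12, as were 31 of all tested genes. With no read in NT, these 31 passed the low-count filter through ZMAT3 libraries alone, so only a rise could be called for them. Thinned to equal depth, 565 of the 615 could be tested and 516 stayed called. Against BRCA1 207 of the rises and 387 of the 633 falls were still called in the same direction, and against the other 7 knockdowns 84 and 154. What part the smaller number of genes in NT libraries has in the rises was not tested otherwise.

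OAZ1 mRNA (ENSG00000104904, chromosome 19, 2269509 to 2273490, plus strand) showed the clearest fall. It stood at 397, 431 and 475 CPM in ZMAT3 libraries and at 1529, 1618 and 1832 CPM in NT libraries. The arms did not come near each other, and the spread within each was narrow. The log2 difference was -1.94 (SE 0.0472, adjusted p = 1.87e-25), and -2.06, -1.85, -1.99 and -1.88 at the 4 chase times. Against BRCA1 it was -1.95 (adjusted p = 2.06e-21) and against the other 7 knockdowns -1.52 (adjusted p = 2.13e-25), and it was called under every alternative tried, each chase time alone included. The mean of every other arm was between 1070 and 1672 CPM, and the lowest single library outside ZMAT3 held 768 CPM. Of its 3 counted intervals, the last (518 bases, 2272973 to 2273490) held 94.0% of the reads in ZMAT3 and 95.1% in NT, and usage of the intervals was not called (adjusted p = 0.399). The hairpin stem and the OAZ1 mRNA shared a run of at most 8 bases, and 41.7% of 19676 protein-coding genes hold a run of 8 or more. OAZ1 held no match to the seed, which 7.99% of genes hold. Whether the hairpin acts on OAZ1 apart from ZMAT3 was not tested.

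**Figure D1:**
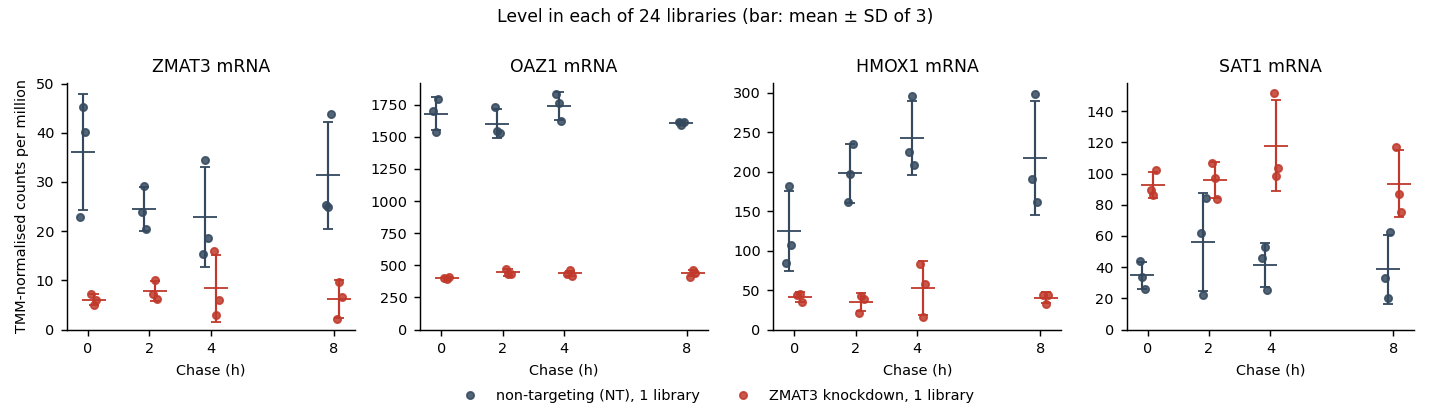
Normalised level (CPM) of ZMAT3, OAZ1, HMOX1 and SAT1 against hours of chase in ZMAT3 and NT libraries. Points are single libraries and horizontal ticks with bars are the mean ± SD of 3 replicates. OAZ1 stays between 397 and 475 CPM in ZMAT3 and at 1529 CPM or more in NT at all times, while SAT1 is higher in ZMAT3 with some overlap.

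HMOX1 (ENSG00000100292, chromosome 22, 35380361 to 35394214), the stress-induced heme oxygenase, had the largest fall among the named genes. Its level was 16.4, 43.5 and 83.2 CPM in ZMAT3 and 84.6, 194 and 298 CPM in NT, without overlap (log2 -2.19, SE 0.191, adjusted p = 3.4e-10). It varied widely between the other knockdowns, with arm medians from 16.1 CPM (ZFP36L1) to 172 CPM (BRCA1), and against all 7 the log2 difference of -1.11 was not called (adjusted p = 0.0509). TSC22D3 (ENSG00000157514, chromosome X), the glucocorticoid-induced leucine zipper, held 158, 180 and 210 CPM in ZMAT3 and 384, 487 and 681 in NT (log2 -1.42, SE 0.0738, adjusted p = 1.73e-15). The ZMAT3 and NT arms were apart for TSC22D3, and it fell against BRCA1 (-1.13) and against the other 7 (-1.06, adjusted p = 0.000231) too. Among the 7 its median was 209 CPM in CNOT4, 222 in ZFP36L1 and up to 741 in MAZ, with 181 in ZMAT3 on that scale. Single libraries of CNOT4 and ZFP36L1 lay within the ZMAT3 range.

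MYO1D, a class I myosin, and SERPINE2, a secreted inhibitor of thrombin and other serine proteases, fell against each control. MYO1D held 6.24, 11.7 and 17.7 CPM in ZMAT3 and 20.0, 35.1 and 69.3 in NT, without overlap (log2 -1.71, adjusted p = 1.21e-05), and -1.47 against the other 7 (adjusted p = 9.84e-07). SERPINE2 held 7.13, 15.2 and 30.3 CPM and 19.4, 62.0 and 115 CPM, with overlap (log2 -1.87, adjusted p = 2.93e-06), and -1.38 against the other 7 (adjusted p = 1.33e-05). The netrin receptor gene UNC5B (-1.38), the mitochondrial cristae gene MICOS13 (-1.42) and ZNF768 (-1.44) likewise fell against all 3 controls. Some single arms were as low or nearly so. The UNC5B median was 10.91 CPM in PHF7 and 12.98 in ZMAT3. For ZNF768 it was 49.53 in PHF7 and 48.56 in ZMAT3, and for MICOS13 9.77 in ZMAT5 and 8.43 in ZMAT3. For each of these genes, BRCA1, CNOT4 and ZFP36L1 had the highest medians among the other 7. ARL6IP6 (-1.46) fell against NT and the 7 knockdowns, and not against BRCA1 (-0.58, adjusted p = 0.613).

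Other named falls were seen against NT and BRCA1 alone, or against NT alone. SCAF1, a partner of the RNA polymerase II tail, held 15.8, 24.9 and 39.2 CPM in ZMAT3 and 65.5, 77.6 and 99.0 in NT, without overlap (log2 -1.62, adjusted p = 3.82e-10). Its medians in the other arms were 20.1 to 33.4 CPM except 83.9 in BRCA1, and against the 7 the difference was -0.53 (adjusted p = 0.349). For PTMS, parathymosin, the log2 difference was -1.43 against NT, again without overlap, and -0.13 against the 7 (adjusted p = 0.773). DOCK4 (-1.83), an activator of RAC, and TUBB4A (-1.41), a beta tubulin, were called against NT, and not against BRCA1 or the 7.

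Among the rest of the 75 genes without overlap, several of firm level fell against every control. SRP14, a protein of the signal recognition particle, held 310, 354 and 434 CPM in ZMAT3 and 573, 661 and 825 in NT (log2 -0.90, adjusted p = 2.98e-12), and it was -1.13 against BRCA1 and -0.93 against the 7 (adjusted p = 1.33e-08). DYNC1H1, the dynein heavy chain, differed by -1.25 against NT and -0.98 against the 7 (adjusted p = 1.05e-06), and PPDPF by -1.29 and -1.08 (adjusted p = 2.84e-07). MRPL32 of the mitochondrial ribosome (-1.05), the kinase gene GSK3A (-1.14) and the nucleoporin gene NUP93 (-0.79) did likewise.

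The rises had no counterpart to OAZ1 in size and separation. SAT1 (ENSG00000130066, chromosome X, 23783173 to 23786210), whose product acetylates spermidine and spermine for their breakdown or export, held 75.7, 97.8 and 151 CPM in ZMAT3 and 19.9, 38.9 and 84.2 CPM in NT, with some overlap. The log2 difference was 1.24 (SE 0.187, adjusted p = 1.65e-05), and it was 1.42 against BRCA1 (adjusted p = 9.28e-05) and 1.13 against the other 7 (adjusted p = 4.73e-06), whose arm medians were 33.1 to 60.0 CPM. SLC3A2, the heavy chain of amino acid exchangers at the plasma membrane, held 334, 373 and 455 CPM in ZMAT3 and 180, 229 and 324 in NT. Its arms did not overlap, and it rose by a log2 of 0.72 against NT, 0.53 against BRCA1 and 0.78 against the 7 (adjusted p = 4.5e-06).

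The other 14 named rises were also positive against both further controls, mostly without a call. HMGN4, a nucleosome-binding protein, had the largest difference (log2 1.48, adjusted p = 0.0472) on 13.6, 23.3 and 32.6 CPM in ZMAT3 and 0.0873, 9.60 and 17.6 in NT. KPNA5, an importin of the nuclear import machinery (1.10), and GATB of mitochondrial glutaminyl-tRNA synthesis (1.25) were called against BRCA1 as well, and C1orf109 (1.05) and the ubiquitin ligase gene RNF149 (0.95) against the 7. TVP23B (1.11), the drug exporter gene SLC47A1 (1.18), the Hsp70 methyltransferase gene METTL21A (1.12), C16orf46 (1.09), the cytoplasmic poly(A) polymerase gene TENT2 (1.00), the SUMO-targeted ligase gene RNF4 (0.97), CCDC77 (0.95), USP6NL (0.93) and ENTPD6 (0.93) were called against NT and against neither other control. All 15 named rises, SAT1 included, overlapped between the arms. Some had a higher median in another knockdown. For RNF4 it was 52.9 CPM in ZMAT5, 51.3 in PHF7 and 48.3 in ZMAT3. In ZFP36L1 and ZMAT3 it was 91.8 and 88.6 for KPNA5, 17.04 and 16.97 for SLC47A1, and 30.4 and 29.1 for ENTPD6. For the other named rises ZMAT3 had the highest median of the knockdown arms. Without replicate 2 of each arm and time, 7 of the 15 rises and 13 of the 15 falls, which include ZMAT3 itself, were still called.

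**Figure D2:**
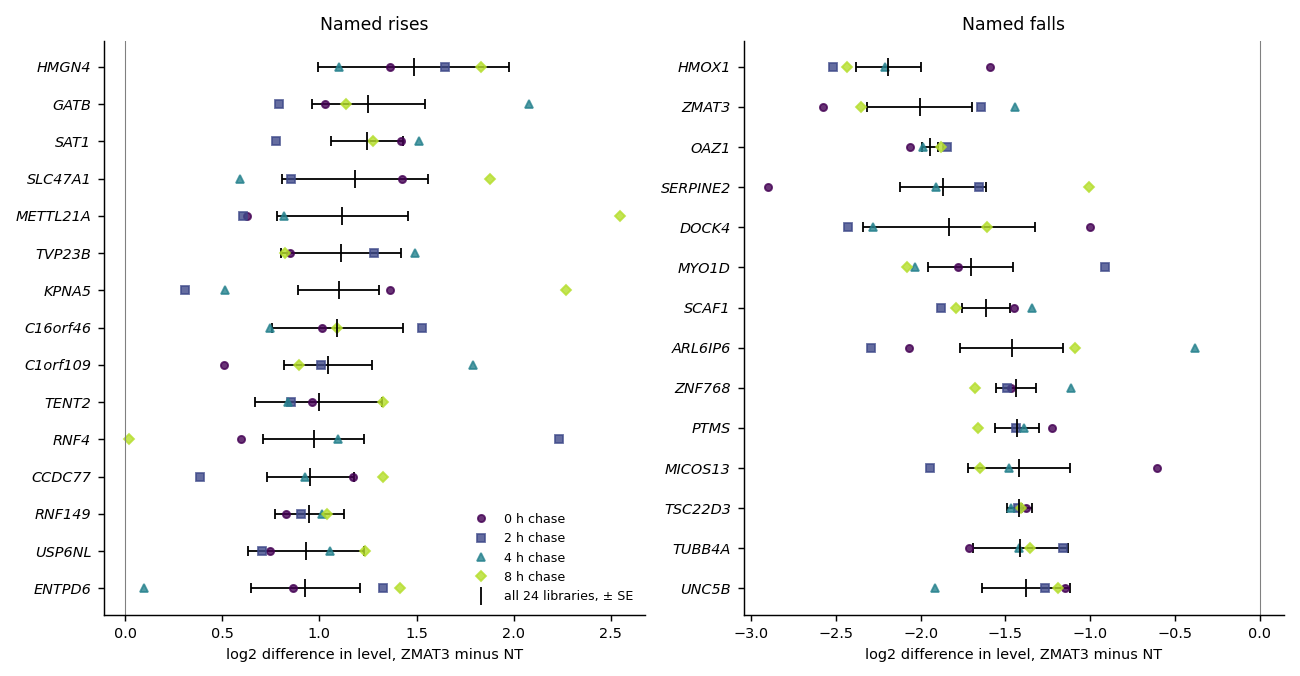
Log2 difference in level, ZMAT3 over NT, for named rises and falls. Coloured points are the 4 chase times and the black tick with its bar is the fit over all libraries ± SE. OAZ1 and TSC22D3 have the narrowest bars among the falls, and HMGN4 one of the widest among the rises.

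The 9 higher genes without overlap were few and mostly abundant. Besides SLC3A2 they were CANX (log2 0.31), a lectin chaperone of the endoplasmic reticulum, HSP90AA1 (0.40), GLO1 (0.45), which detoxifies methylglyoxal, RACK1 (0.49), a protein of the small ribosomal subunit, PYURF (0.56) and HOXA9 (0.67), both with bases shared with another gene, the interferon-induced IFI35, and ENSG00000264187, which also shares bases. IFI35 held 0.198, 0.861 and 2.89 CPM in ZMAT3 and at most 0.176 CPM in NT, and ENSG00000264187 was at 0 in all 12 NT libraries. ENSG00000264187 thus passed the low-count filter through ZMAT3 libraries alone and could only be called higher. Against the 7 knockdowns IFI35 differed by -0.55 (adjusted p = 0.82), so this rise is not seen with those arms as control. Of these genes, SLC3A2 and HOXA9 (0.50, adjusted p = 0.0106) also rose against the 7.

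OAZ1 was also the only one of 7494 tested mRNAs called for faster loss of label in ZMAT3 (0.0133%). Its T>C rate in the 3 ZMAT3 replicates was 3.73, 3.29 and 4.25% at 0 h, 3.22, 3.11 and 2.39% at 2 h, 1.35, 2.09 and 1.38% at 4 h, and 0.569, 0.730 and 0.602% at 8 h. In NT it was 1.53, 1.24 and 1.35% at 0 h, 1.23, 1.29 and 1.33% at 2 h, 1.21, 1.03 and 1.21% at 4 h, and 1.02, 0.997 and 0.770% at 8 h. The 3 ZMAT3 values were all above the 3 NT values at 0, 2 and 4 h and all below them at 8 h. The rate of loss was 0.231 per h in ZMAT3 and 0.0499 per h in NT, a difference of 0.181 (SE 0.0209, adjusted p = 9.93e-06), and first-order half-lives were 3.56 and 14.8 h.

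The label of OAZ1 was also set against that of all genes of the same library, since ZMAT3 libraries carried more label overall. OAZ1 carried 1.25 times the all-gene T>C rate at 0 h in ZMAT3 (1.197 to 1.334 over 3 replicates) and 0.564 times at 8 h (0.562 to 0.568). In the 8 other arms the mean ratio was 0.768 to 0.956 at 0 h and 1.24 to 1.67 at 8 h, so the direction of change was the opposite one. By 8 h, 16.9% of the 0 h rate was left in ZMAT3, 67.6% in NT and between 50.6% (MAZ) and 80.8% (BRCA1) in the other arms. With BRCA1 as control the difference in the decay rate of OAZ1 was 0.203 per h (adjusted p = 9.3e-07), with rates scaled to each library's own label 0.186, and with limma on log rates 0.179 (adjusted p = 0.00970). Without the 8 h libraries it was 0.168 and not called (adjusted p = 0.417). Its label at 0 h beyond the library-wide difference was not called (log2 0.71, adjusted p = 0.054).

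**Figure D3:**
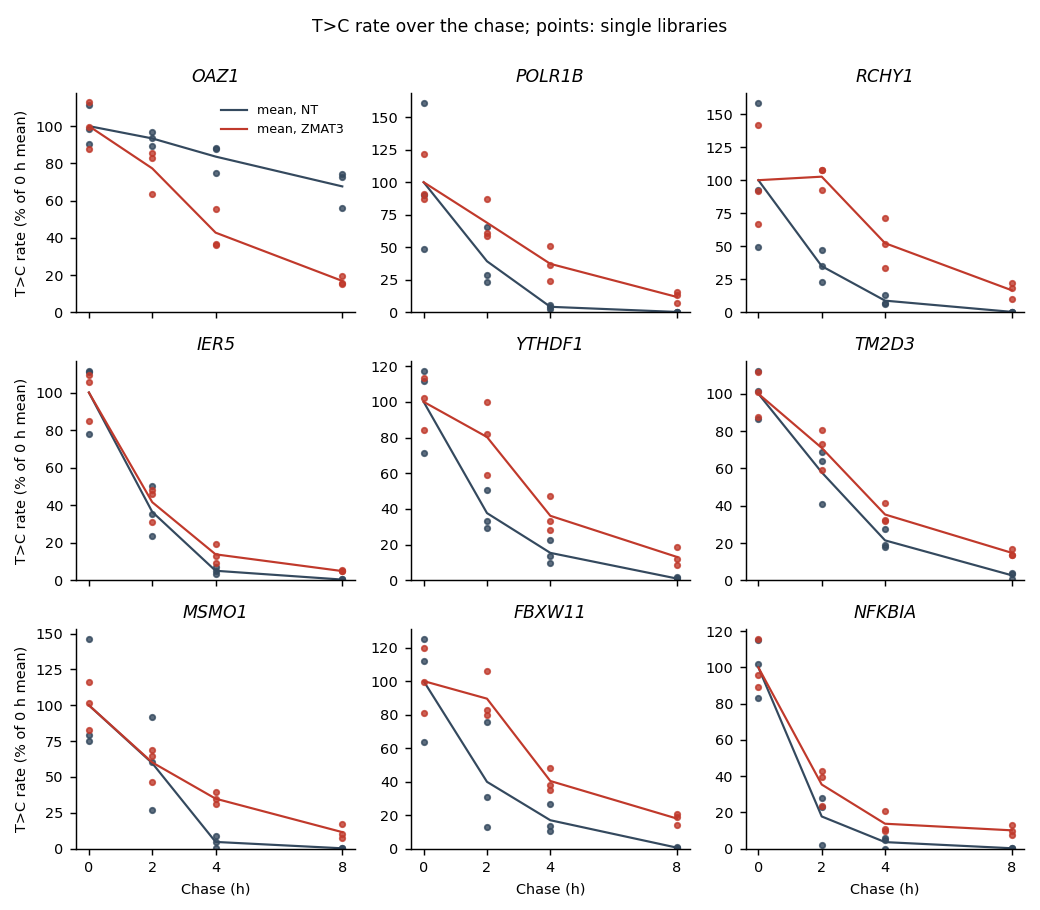
T>C rate as a percentage of its 0 h mean against hours of chase for OAZ1 and the 8 named mRNAs of slower loss, with points for single libraries and lines for the mean of 3. OAZ1 falls to 16.9% in ZMAT3 and 67.6% in NT, and the other 8 show the reverse order of the arms.

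Slower loss of label was called for 42 of 7494 mRNAs (0.56%), and the count moved widely with the libraries used. POLR1B, the second subunit of RNA polymerase I, lost label at 0.273 per h in ZMAT3 and 0.769 in NT (difference -0.495, SE 0.0731, adjusted p = 0.00045). Its T>C rate at 8 h was 0.642, 0.531 and 0.278% in ZMAT3 and 0.00611, 0.00383 and 0.0129% in NT. RCHY1, a ubiquitin ligase, lost label at 0.245 and 0.700 per h (adjusted p = 0.00045). NFKBIA, the inhibitor of NF-kappaB, had a rate of 0.279 and 0.790 per h (adjusted p = 0.0146), with 0.585, 0.347 and 0.426% left at 8 h in ZMAT3 and 0.00678, 0 and 0.00654% in NT. The immediate-early gene IER5 (0.376 and 0.698 per h, adjusted p = 0.00597), the m6A reader gene YTHDF1 (0.268 and 0.563, adjusted p = 0.0071), TM2D3 (0.246 and 0.461), the sterol oxidase gene MSMO1 (0.272 and 0.834) and FBXW11 of the SCF ubiquitin ligases (0.231 and 0.645) followed. Of these 8, IER5 was called lower in level (log2 -0.51) and YTHDF1 higher (0.42), and the others were not called.

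Across the 42, the median mRNA kept 78.8, 35.8 and 13.2% of its 0 h rate at 2, 4 and 8 h in ZMAT3 and 42.4, 9.31 and 0.414% in NT. In NT 31 of the 42 were under 1% of the 0 h rate at 8 h, in ZMAT3 0. These values describe the 42 only, since they were chosen by slower loss in the same libraries. Over 5988 well covered genes the pooled rate kept 38.8% of its 0 h value at 8 h in ZMAT3 and 35.9% in NT. The 42 also held MCL1, CCNG2, DDIT4, CCNE1, SLC3A2 and EIF5, of which CCNG2, DDIT4 and CCNE1 had no conversion at 8 h in NT and SLC3A2 kept 10.6%. Without the 8 h libraries 0 of the 42 were called by edgeR, although all 42 kept their direction, their median difference was -0.278 per h against -0.443 with all times, and 343 of 7683 genes had an unadjusted p under 0.05. Without the 2 h libraries 16 of the 42 were called and without the 4 h libraries 40, of 17 and 229 slower calls. With BRCA1 as control 1 of 40 was called and 31 were in the same direction, with a median difference of -0.0738 per h. Leaving out replicate 1, 2 or 3 of both arms left 6, 3 and 4 of the 36 that could be tested, and leaving out single libraries gave between 16 (without ZMAT3 replicate 2 at 0 or 8 h) and 106 slower calls (without NT 4 h replicate 2).

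Over 5988 well covered genes the pooled T>C rate was higher in ZMAT3 than in NT at every time. A high rate was not particular to ZMAT3. Over all genes it was 3.03% at 0 h in ZMAT3, 2.95% in MAZ, 2.29% in ZNF706 and 2.28% in PHF7. In ZFP36L1 it was 1.95%, in NT 1.75%, in BRCA1 1.68%, in CNOT4 1.45% and in ZMAT5 1.27%. Over the 5988 genes the rate in ZMAT3 was 3.02 ± 0.523% (SD, n = 3) against 1.79 ± 0.0783% in NT at 0 h, and 2.78 ± 0.466 against 1.40 ± 0.0551% at 2 h. At 4 h it was 1.95 ± 0.494 against 1.06 ± 0.0194%, and at 8 h 1.17 ± 0.157 against 0.642 ± 0.0342%. The 3 ZMAT3 libraries lay above the 3 NT libraries at each time, and the exact permutation test gave p = 0.1 each time, the smallest that 3 against 3 allows. The pooled rate was lost at 0.124 per h in ZMAT3 and 0.129 per h in NT (difference -0.0048, permutation p = 0.922). Label per gene at 0 h, beyond the library-wide difference, was called for 0 of 7494 genes (0%) by edgeR, with 674 at an unadjusted p under 0.05, which does not show that label was equal gene by gene.

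First-order half-lives of single genes were nonetheless longer in ZMAT3 for 82.5% of 5285 genes. The shift was larger for genes of low level. Its median log2 was 1.10 at 5 to 10 CPM, 0.77 at 10 to 20, 0.58 at 20 to 50, 0.44 at 50 to 100 and 0.35 over 100 CPM. These classes use the deposited CPM, of which 3′ UTR intervals held 48.0 to 54.6% per library. They are thus not on the scale of the TMM levels above. Medians by replicate were 4.18, 4.76 and 3.23 h in ZMAT3 and 2.63, 2.68 and 2.54 h in NT. Each was over the genes fitted in that replicate, 6341, 3137 and 7483 in ZMAT3 and 4151, 3718 and 4039 in NT. These curves join the 4 chase times by replicate number, which did not pair the samples. The exact permutation test on these medians gave p = 0.1. Without replicate 2 the median shift was 0.21, and from the 0 h and 8 h libraries alone it was 0.36. Genes called higher in level had a median half-life shift of 0.53, like all genes (0.53), and genes called lower 0.31.

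**Figure D4:**
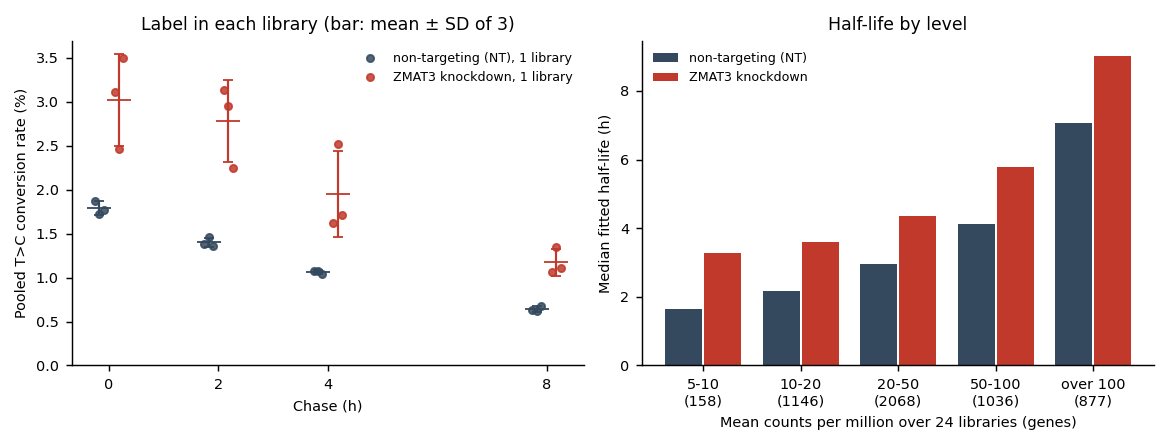
Left, pooled T>C rate (%) of single libraries against hours of chase. Right, median half-life (h) in ZMAT3 and NT by class of level (deposited CPM). ZMAT3 lies above NT at each time, and the gap between median half-lives is widest, as a ratio, in the class of 5 to 10 CPM.

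Pathways and protein complexes were read through 27 lists of 843 genes, 816 of them tested. Of all genes 4.81% were called higher and 4.95% lower, but these shares depend on level. Over 100 CPM 25.6% of 2279 genes were called, 268 higher and 315 lower, and at 5 to 20 CPM 2.25% of 2934. The lists were not matched for level, so a share above that of all genes may reflect abundant members, which was not tested. Of mRNAs that the literature links to ZMAT3, ACOT7, FAS, SFN and MYCN were tested and none was called. ACOT7 differed by -0.04, FAS by -1.23, SFN by 0.63 and MYCN by 2.58, the last 3 with 4, 9 and 10 of the 12 NT libraries at 0. In the BCL2 family 1 of 18 was higher and 3 lower, BAX, BNIP3 (-0.49) and BCL2L12 (-0.36). BAX, which promotes cell death at the mitochondrion, held 89.8, 113 and 129 CPM in ZMAT3 and 153, 163 and 252 in NT, without overlap (log2 -0.65), and had a log2 of -0.01 against the 7 knockdowns.

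Tubulins had the largest share of falls, with 0 of 14 higher and 6 lower (42.9%) and a median of -0.39 against NT, -0.26 against BRCA1 and -0.36 against the 7. TUBA1C held 706, 815 and 904 CPM in ZMAT3 and 1297, 1414 and 1762 in NT, without overlap (log2 -0.84), and TUBA1A (-0.55) and TUBA1B (-0.48) fell as well. Proteins of the spliceosomal snRNPs followed, with 0 of 29 higher and 9 lower (median -0.15, -0.23 against BRCA1 and -0.06 against the 7), SNRPD1 (-0.89), SF3A2 (-0.53), SF3B4 (-0.49) and SNRPF (-1.04, bases shared with another gene) among them. Of SR proteins and hnRNPs 1 of 31 was higher, SRSF11 (0.48), and 5 lower, HNRNPM (-0.49) and HNRNPU (-0.44, bases shared with another gene) included. The list median was -0.03 against NT, 0.02 against BRCA1 and 0.18 against the 7. HNRNPU was -0.0009 against the 7 (adjusted p = 0.999). In the respiratory chain 6 of 76 were higher and 16 lower (median -0.04). NDUFB7 (-1.23) of complex I and ATP5ME (-1.02) and ATP5MF (-0.73) of ATP synthase fell without overlap. Actin, tropomyosin and adhesion genes counted 2 higher and 7 lower of 35, TLN1 (-0.90) and S100A11 (-0.61) among the lower and ANXA1 (2.84) among the higher.

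Genes of translation went both ways. Of 46 proteins of the large ribosomal subunit 8 were higher and 7 lower (median -0.01), with RPLP1 (-0.76), RPLP2 (-0.49) and RPL5 (-0.36) lower and RPL21 (0.61) higher, the last on 80.3% multimapped reads. Of 32 proteins of the small subunit 4 were higher and 6 lower (median -0.02), RPS24 (-0.62), RPS28 (-0.48) and RPS25 (0.47) among them, and RPS9 (-1.06) on 99.1% multimapped reads, which turned to 1.202 when these were subtracted. Against the 7 knockdowns the medians of both lists were lower, at -0.45 and -0.67. Translation factors counted 4 higher and 5 lower of 39, with EIF5A (-0.95), EIF4G1 (-0.54), EIF4A1 (-0.45) and EIF4G2 (-0.43) lower. EIF5A, which carries hypusine made from spermidine, held 255, 391 and 529 CPM in ZMAT3 and 535, 754 and 956 in NT, and was 0.40 against the 7 (adjusted p = 0.221). Ribosome biogenesis factors counted 5 higher and 3 lower of 30 (NOP2 0.63, NHP2 0.51, BYSL 0.41, GAR1 -0.48), and the mitochondrial ribosome 11 higher and 7 lower of 77 (median 0.13), MRPL12 (-0.89), MRPL28 (-0.78) and MRPL41 (-0.69) among the lower.

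Factors of RNA decay were called in both directions. Of the CCR4-NOT, PAN2-PAN3 and BTG/TOB genes of deadenylation 0 of 19 were higher and 1 lower, CNOT11 (-0.64). Decapping factors, exonucleases and the exosome counted 1 higher and 3 lower of 29, with the scavenger decapping enzyme gene DCPS (-0.71), LSM7 (-0.58) and EXOSC6 (-0.37) lower and LSM4 (0.36) higher. Of 16 nonsense-mediated decay factors 1 was higher, PNRC2 (0.64, 20.4% multimapped reads), and 2 lower. MAGOH of the exon junction complex held 192, 233 and 263 CPM in ZMAT3 and 278, 390 and 487 in NT, without overlap (log2 -0.77), and EIF4A3 of the same complex differed by -0.29. Of AU-rich element binding proteins 1 of 19 was higher, HNRNPAB (0.29), and 1 lower, KHSRP (-0.55). Among 13 other ZMAT and double-stranded RNA zinc-finger genes 1 was higher, ZMAT1, which was at 0 in all NT libraries and at least 17.6-fold higher in ZMAT3, where it was itself at 0 in 6 of 12 libraries and had at most 24 reads. ZMAT1 thus passed the low-count filter through ZMAT3 libraries alone and could only be called higher. Of 34 immediate-early and short-lived mRNAs 2 were higher and 3 lower (median 0.15), ATF3 (0.89), IER5, ID3 (-0.40) and SOCS3 included, the last at 0 in 10 NT libraries, and 3 of the 20 tested for decay lost label more slowly (0.56% of all genes). The median NT rate of label loss was 0.475 per h in this list, 0.198 over all tested genes and 0.698 for the slower calls. These shares were not matched for that rate.

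Stress and growth lists were mixed. In the integrated stress response 4 of 24 were higher and 2 lower, with ATF3 and SLC3A2 higher and DDIT4 (-1.17), an inhibitor of mTORC1, and ATF5 (-0.62) lower. Chaperones of the endoplasmic reticulum counted 2 higher and 4 lower of 20 (median -0.09), PDIA3 (-0.94, bases shared with another gene), SDF2L1 (-0.88) and HSPA5 (-0.37) lower and P4HB (0.42) higher. Heat shock and cytosolic chaperones counted 1 higher, HSP90AA1, and 2 lower of 26, DNAJB1 (-0.33) and CCT8 (-0.32). Of 22 interferon-stimulated genes 3 were higher and 0 lower, with a median of 0.36 against NT and -0.18 against the 7 knockdowns, and the 3 were IFI35 and IFIT3, both at 0 in 11 of 12 NT libraries, and B2M (0.27), on 83.6% multimapped reads. G1/S and replication genes counted 2 higher and 4 lower of 44, DNA ligase LIG1 (-0.99), RFC3 (-0.64) and E2F1 (-0.41) lower and E2F2 (0.87) higher, and G2/M and mitosis genes 5 higher and 1 lower of 38, PRC1 (0.48), MAD2L1 (0.48) and KIF20A (0.41) higher and UBE2C (-0.46) lower. Of the proteasome 5 of 41 were higher and 5 lower, PSMA6 (0.65), PSMD10 (0.45), PSMD3 (-0.59) and PSMD4 (-0.51) among them, and of cholesterol synthesis 1 of 25 was higher and 3 lower, with the rate-controlling SQLE at -0.73, EBP at -0.51 and SC5D higher at 0.41.

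**Figure D5:**
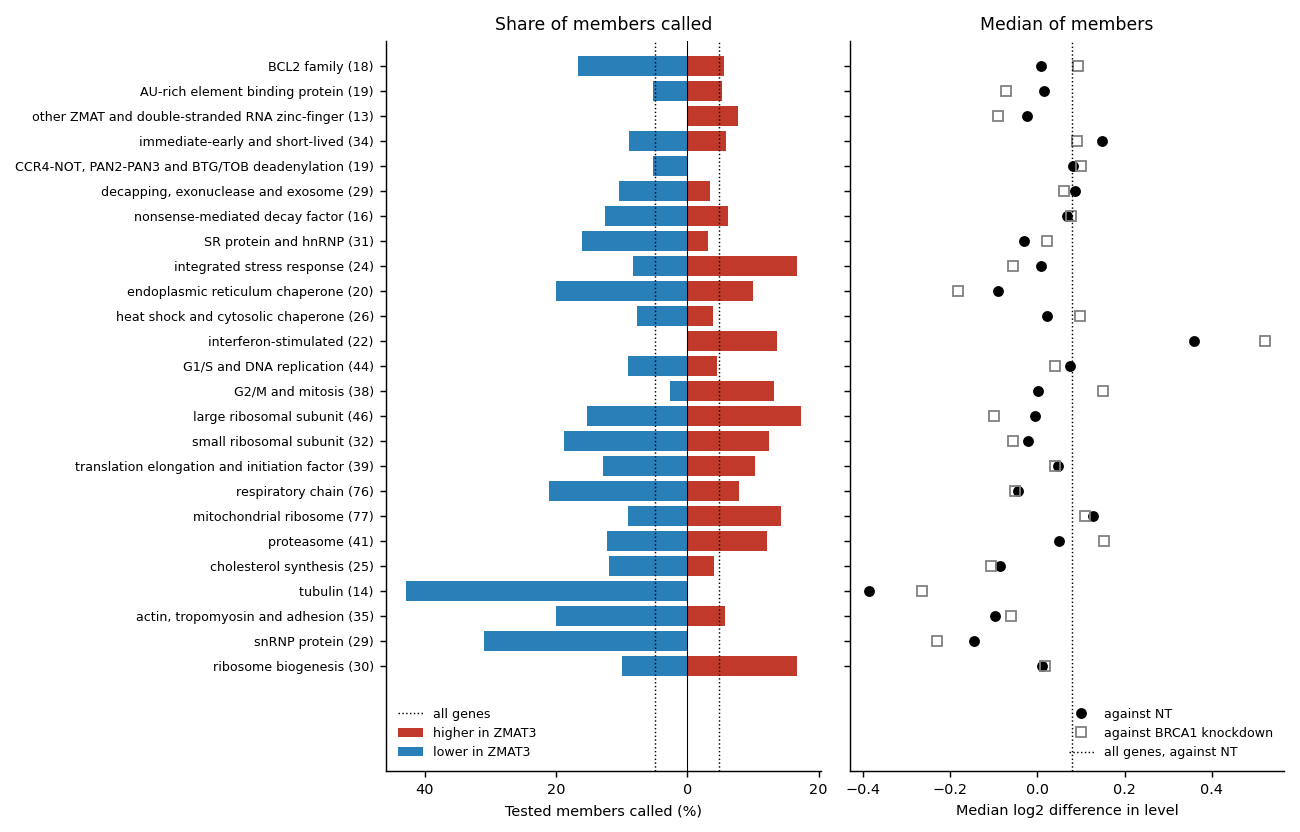
Left, share of tested members (number in brackets) of each gene list called higher or lower in ZMAT3 (%), with dotted lines at the shares of all genes. Lists and all genes were not matched for level. Right, median log2 difference of the members against NT and against BRCA1. Tubulins (42.9% lower) and snRNP proteins stand farthest to the left, and interferon-stimulated genes have the highest median.

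The use of 3′ UTR intervals within a gene was called for 376 of 3723 genes (10.1%). In 368 of the 376 the interval with the strongest change was not the last of the gene, and in 362 of these it gained share in ZMAT3. Over all 3723 tested genes it was not the last in 3257 and gained share in 2792 of these. The last interval held 72.6% of reads in the median ZMAT3 library (71.8 to 73.2%) and 74.0% in the median NT library (73.1 to 75.2%). In RPL5, a large-subunit protein that also binds MDM2, interval 3 of 4 (chr1:92836191-92836354, plus strand) held 16.3 ± 1.78% of reads in ZMAT3 and 7.49 ± 2.97% in NT (SD, n = 12, adjusted p = 1.56e-07). RPS3A interval 1 of 3 (chr4:151102880-151103079, plus strand) held 29.6 ± 3.82% and 15.2 ± 4.32%, and interval 3 of 5 of UQCRB, of respiratory complex III, 41.9 ± 3.67% and 23.5 ± 5.12%. SRSF7, an SR splicing factor, gained share in interval 2 of 6 (13.3 ± 1.88% against 6.24 ± 3.05%). HSP90AA1 lost it in interval 4 of 9 (3.27% against 6.51%), and YY1AP1 in the first of 8, with 3.15 ± 1.54% against 25.8 ± 17.6% and a range of 6.68 to 65.8% over the NT libraries. Of the 376 genes, 42 were called in level, 20 higher and 22 lower, a share near the 9.77% of all genes. Thinned to equal depth 255 genes were called, and without replicate 2 or 3 of both arms 115 and 112.

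Base composition of the counted sequence moved with the calls. With genes in 5 groups of equal size by GC content, from the lowest group to the highest, the share called lower went from 3.06 to 8.35% and the share called higher from 5.68 to 2.66%. By T content, likewise from the lowest of 5 groups to the highest, the share called lower went from 6.62 to 3.76%. Genes with an ATTTA pentamer, which 68.6% of all genes hold on the sense strand, were called lower in 4.14% of cases and genes without it in 7.76%, but holders were also longer, with a median of 2486 against 722 counted bases. OAZ1 holds 1 ATTTA in 765 bases and HMOX1 0 in 618. The median difference in label loss was -0.043 per h for genes with TATTTAT (32.1% of genes) and -0.022 for those without, but holders were again longer (median 3252 against 1407 counted bases), and by length alone the difference ran from -0.012 in the shortest of 5 groups to -0.049 in the longest. Of the 444 tested genes with the hairpin's seed match, TCCGAAA, in their counted bases, 3.83% were called higher and 6.08% lower, against 4.86 and 4.89% of genes without it, and POLR1B was the only one with a match there among the named rises, falls and decay calls. Over whole mRNAs ZMAT3, the target, and TENT2 hold it too. Whether GC content or length has a part in the calls was not tested.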

How the data were processed

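Per the paper's methods the authors aligned reads to hg38 with SlamDunk 0.4.3, multimapped reads included, and deposited, for each of 69079 3′ UTR intervals, counts of reads, T>C reads, covered T positions and T>C conversions. The authors also deposited reads as CPM and the conversion rate as a fraction, which equals conversions over covered T. All were summed over 19761 Ensembl genes, 19501 named from GENCODE 44. The depth ranges are given with the data, and intervals over counts cover counting error only.

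Levels were tested with edgeR 4.0.16 (quasi-likelihood, TMM, filterByExpr, chase time as a factor, R 4.3.3) and intervals with its diffSpliceDGE. Label was tested with edgeR on conversions with log T coverage as offset, for genes that passed 5 CPM in 2 or more replicates of both arms at every chase time. Limits and classes of CPM for label and half-lives use the deposited CPM. All p-values were adjusted by Benjamini-Hochberg over all genes tested. Half-lives came from first-order curves through replicate means (R2 over 0.6). Permutation tests used SciPy 1.17.1, with 100000 permutations for the pooled loss, and were two-sided. Each step was tested on simulated data.

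Named genes were ZMAT3, the 15 largest rises and falls among called genes over 10 CPM in the higher arm with under 10% multimapped reads, no shared base and 1 sign at all 4 times, the 8 slower and the faster decay calls of smallest p, the 6 interval calls of smallest p, and up to 4 called members per list. ZMAT3 itself was also among the 15 falls. SLC3A2, SRP14, DYNC1H1, PPDPF, MRPL32, GSK3A, NUP93 and the 9 higher genes without overlap were chosen after their values were seen. The members, lists and comparisons were chosen with earlier results of these data known. Of all genes 2516 share counted bases with another gene, 987 of them on the same strand. A few named genes and 1 list are not reported here.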

Additional observations from a re-analysis of the deposited data

How the results depend on the processing

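The counts of called genes moved with the tool, the filter, the control arm and the libraries used. Genes higher in ZMAT3 numbered 1002 without a filter on low counts, 1361 with limma voom and a variance per arm, 185 against the other 7 knockdowns, and 10, 2, 0 and 12 from the 0, 2, 4 and 8 h libraries alone. Genes lower numbered 327 against the 7 and 42, 20, 18 and 66 from single times. Leaving out replicates or libraries gave 280 to 698 higher and 368 to 649 lower genes. ZMAT3 mRNA was -1.66 (adjusted p = 0.249), -1.44 (0.529) and -2.35 (0.167) from the 2, 4 and 8 h libraries alone, and -2.30 to -1.89 with a replicate or library left out.

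Dependence on chase time was called for 99 genes by DESeq2, 26 without the filter and 0 to 4 with libraries left out. Label at 0 h was called higher for 2330 genes without the library-wide rate, 2 over 10 CPM and 0 to 51 with a library left out (51 without NT 0 h replicate 3), and lower for 0 to 1. Slower loss was called for 76 genes by limma on log rates, 76 with scaled rates, 12 against BRCA1, 17 without the 2 h, 229 without the 4 h and 0 without the 8 h libraries, and for 6 to 106 with replicates or libraries left out. The count passed 1.5 times the 42 without NT 0 h replicate 1 (64) or 2 (79), NT 4 h replicate 1 (103), 2 (106) or 3 (78) and NT 8 h replicate 3 (81). It was under 28 without NT 2 h replicate 1 (25) or 3 (27), any ZMAT3 0 h library (16 to 19), ZMAT3 2 h replicate 3 (20), ZMAT3 4 h replicate 2 (27) or 3 (23) and any ZMAT3 8 h library (16 to 27). Faster loss was called for 2 genes by limma, 0 without the 8 h libraries and 1 to 2 with libraries left out. Interval usage was called for 247 genes at a mean of 10 reads, 255 when thinned and 112 to 311 with a replicate left out. The half-life shift was 0.21 to 0.82, and over 100 CPM 0.35 with an exact permutation p = 0.9. The difference in pooled loss was -0.0172 to 0.0166, reversed without replicate 2.

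Some named log2 differences in level turned sign. Against the 7 knockdowns FAS was 0.0264, ZMAT1 -1.28, ID3 0.332, HNRNPM 0.0350, IFI35 -0.555, IFIT3 -0.160, B2M -0.0518, RPL21 -1.27, EIF5A 0.397, EIF4A1 0.201, MRPL28 0.0406 and SQLE 0.0642. Against BRCA1 FAS was 2.54, ACOT7 0.305, BNIP3 0.0130, DNAJB1 0.0594 and the difference in the decay rate of YTHDF1 0.0662 per h. ACOT7 was 0.0953 at 2 h and -0.194 to 0.0696 with one left out, above 0 without replicate 1 or 3 or without NT replicate 3 at 4 or 8 h. FAS was 0.543 with limma voom, SFN -0.156 to 2.62 with one left out (-0.156 without ZMAT3 2 h replicate 2), and RPS9 1.202 with multimapped reads, 99.1% of its reads, subtracted. The causes were not tested.

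Replicate numbers did not pair the samples, with correlations of -0.026 to 0.019 between same-numbered libraries over 5686 genes. With the replicate number as a block 734 genes were higher and 610 lower, 25 slower and 1 faster, and 372 differed in interval usage.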

Other observations

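Since OAZ1 and SAT1 both act on polyamines, the other genes of polyamine turnover were looked up after those values were seen, so they are a description. ODC1, the enzyme that antizyme targets, held 561, 615 and 677 CPM (lowest, median and highest of 12) in ZMAT3 and 428, 521 and 637 CPM in NT, with overlap, and was not called (log2 0.23, SE 0.0563). SRM, spermidine synthase, was called lower (-0.37), at 182, 228 and 320 CPM against 173, 289 and 428 CPM, and was -0.67 against BRCA1 and -0.46 against the other 7 knockdowns. The second antizyme gene OAZ2 differed by -0.06, the antizyme inhibitor gene AZIN1 by -0.18, the spermine synthase gene SMS by -0.18, AMD1, which supplies the aminopropyl donor, by -0.07, SAT2 by 0.24 and the spermine oxidase gene SMOX by -0.01, and none of these was called. Of the 10 genes, OAZ1, SAT1 and SRM were thus called. OAZ1 was the only one with a called difference in label loss. SAT1 lost label at 0.0816 per h in ZMAT3 and 0.0897 per h in NT, and ODC1 at 0.0770 and 0.0613 per h.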
